A study of Mus musculus with 9 samples.

Results

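A set of 37 genes of protein folding in the endoplasmic reticulum and of the unfolded protein response was followed across the small intestine of control and Gata4 mutant mice. They were taken by name, as every probe set annotated to exactly 1 of the 37 symbols, which gave 91 probe sets of the 45037 on the array other than its controls. All 37 genes had at least 1 probe set bright enough to be tested, and 85 of the 91 probe sets were tested. A further probe set of Sec61b is also annotated to another gene and was left out. RNA came from male mice aged 6 to 8 weeks, with 3 mice and 3 arrays in each of 3 groups. Control jejunum and control ileum carried Gata4 loxP/+ with VilCre, and mutant jejunum carried Gata4 loxP/- with VilCre. Gata4 encodes a GATA-binding transcription factor made in duodenum and jejunum. VilCre is a transgene that expresses Cre recombinase under the villin promoter, in the epithelium and not in the muscle or immune cells of the gut wall. All 9 mice carried it together with 1 loxP-flanked copy of Gata4, so that copy met Cre in the controls too, and mutant and control differed only in the remaining allele. Jejunum was taken 10 cm beyond the pylorus and ileum 1 cm before the cecum, and the animals used for the control jejunum and the control ileum were different ones. The labels do not say whether muscle was removed before RNA was made. In such whole-tissue RNA, fewer cells of a type and less RNA per cell cannot be told apart.

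Secreted and membrane proteins enter the endoplasmic reticulum through the Sec61 channel and fold there with the help of the chaperone Hspa5 (BiP), of lectin chaperones such as calnexin (Canx), and of disulfide isomerases that the Ero1 oxidases recharge. When unfolded proteins accumulate, the sensors Ern1 (IRE1 alpha), Eif2ak3 (PERK) and Atf6 start the unfolded protein response. Ern1 splices the Xbp1 message, Eif2ak3 slows translation and favours synthesis of Atf4, and Atf6 is cut in the Golgi to release a transcription factor. The response raises chaperones and the machinery that sends misfolded proteins to the proteasome, and under lasting stress it also induces Ddit3 (CHOP) and Trib3. In the gut, the goblet, Paneth and plasma cells carry the heaviest secretory load, and Ern2 (IRE1 beta) is a sensor found mainly in mucus-producing epithelium. Arrays measure transcript levels, so splicing of Xbp1, cutting of Atf6 and phosphorylation of the sensors were not measured.

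Atf6 and Xbp1 act on the ER stress response element, which is CCAAT and CCACG separated by 9 bases. This element was searched on both strands in the RefSeq promoter sequences of assembly GRCm38.p6, from 250 bases before to 50 bases after each gene's start. Of the 37 genes, 31 matched an entry, and 9 of these 31 (29.0%) held the element, against 37 of 27025 genes with an entry (0.137%). A second form, element II (ATTGG, any base, CCACG), lay in the promoters of Herpud1 and Dnajb11, which is 6.45% of the 31 against 0.0444% of all promoters. The UPR element TGACGTGG was in none of the 31, against 0.714% of all promoters. The C/EBP-ATF element TGATGNAAT, which Atf4 binds, was in none of the 31 either, against 1.08% of all promoters. A match describes these letters in this window and does not show binding. The sequences below, written 5′ to 3′ on the gene's strand with the matched parts in capitals, belong to members whose values are given array by array. Hspa5 is shown over the whole stretch before its start, because its promoter also holds other CCAAT boxes and a TATA-like stretch around the match, and the others are shown around the match.
Hspa5 (chr2:34771840-34772089, plus strand): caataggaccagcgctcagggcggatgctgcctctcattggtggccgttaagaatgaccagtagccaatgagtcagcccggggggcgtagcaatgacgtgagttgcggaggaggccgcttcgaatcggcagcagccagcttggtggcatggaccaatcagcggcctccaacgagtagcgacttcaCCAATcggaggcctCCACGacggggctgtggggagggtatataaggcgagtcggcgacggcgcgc
Hsp90b1 (chr10:86705517-86705672, minus strand): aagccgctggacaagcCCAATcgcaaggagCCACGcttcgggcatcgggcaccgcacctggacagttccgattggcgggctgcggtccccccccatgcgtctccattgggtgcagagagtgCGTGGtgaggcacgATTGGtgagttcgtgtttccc
Canx (chr11:50325784-50325834, minus strand): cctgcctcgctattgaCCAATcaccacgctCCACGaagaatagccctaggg
Pdia6 (chr12:17266475-17266525, plus strand): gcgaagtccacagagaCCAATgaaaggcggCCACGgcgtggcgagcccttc
Ero1b (chr13:12565666-12565716, plus strand): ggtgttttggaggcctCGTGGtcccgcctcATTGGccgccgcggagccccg
Dnajc3 (chr14:118937811-118937861, plus strand): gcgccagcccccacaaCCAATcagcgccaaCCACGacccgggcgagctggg
Creld2 (chr15:88819504-88819554, plus strand): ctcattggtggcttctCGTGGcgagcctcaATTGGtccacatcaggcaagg
Herpud1 (chr8:94386361-94386403, plus strand): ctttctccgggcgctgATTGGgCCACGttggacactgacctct
The match of Hspa5 lies at bases -65 to -47 from the start, and that of Herpud1 at -52 to -42. Hsp90b1 holds 2 matches, at -212 to -194 and, on the opposite strand, at -107 to -89. In Ero1b and Creld2 the element also lies on the opposite strand, so that it reads CGTGG before ATTGG. Syvn1 (-44 to -26) and Derl3 (-156 to -138, opposite strand) are the remaining 2 of the 9.

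Each level is a quantile-normalized log2(intensity + 16), where 4 is the value of an intensity of 0. Means carry their SD over the 3 arrays of a group (n = 3). A probe set was tested where at least 3 arrays exceeded 4.95, and a difference was called at an adjusted p under 0.05 (limma, two-sided, Benjamini-Hochberg over 29307 probe sets). The brightest tested probe set stands for a gene. Precision is limited by there being 3 arrays in a group. Before normalization the ileum arrays were dimmer: trimmed mean intensity ran from 96.8 to 180 over the 9 arrays, at a ratio of 0.674 for ileum over jejunum. The mean log2 level of the 18 hybridization control probe sets, for RNA that is added in equal amounts, was also lower by 0.76 on ileum arrays (difference -0.76). Brightness and segment cannot be told apart, and the normalization assumes that the distribution of levels is the same on every array. Of the single arrays, mutant jejunum 3 lay away from the rest of its group on principal component 2 (-55.8, where the other mutant arrays were above 0) and had the lowest array weight, 0.384. It was also the highest of the 9 arrays for 14 of the 37 genes, beside 15.5% of all genes tested, so results that rest on it are given with and without it. Control jejunum 1 was the lowest of the 9 arrays for 14 of the 37 genes, beside 10.1% of all genes. Control jejunum 2 lay above the mean of the other control jejunum arrays for 31 of the 37 genes, beside 48.9% of all genes. The 3′ minus 5′ signal of the actin control probe sets, a sign of RNA integrity, ran from 0.25 to 0.48 over the 9 arrays and was 0.31 on mutant jejunum 3. That of the Gapdh control probe sets ran from -0.46 to -0.30 on the jejunum arrays and from -0.53 to -0.49 on the ileum arrays, and its part in the ileal results was not tested. As a check of the labelled segments, the ileal bile acid carrier Fabp6 had a level of 4.84 ± 0.19 in control jejunum and 13.74 ± 0.10 in control ileum. Fabp6 stood at 13.90 on all 3 mutant jejunum arrays, an equal value because quantile normalization gives probe sets of the same rank the same level. For Gata4 itself both tested probe sets gave no call in the mutant (-0.02, adjusted p = 0.959, and 0.65, adjusted p = 0.195). Their place relative to the deleted part was not analysed here, so they do not check the deletion.

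**Figure D1:**
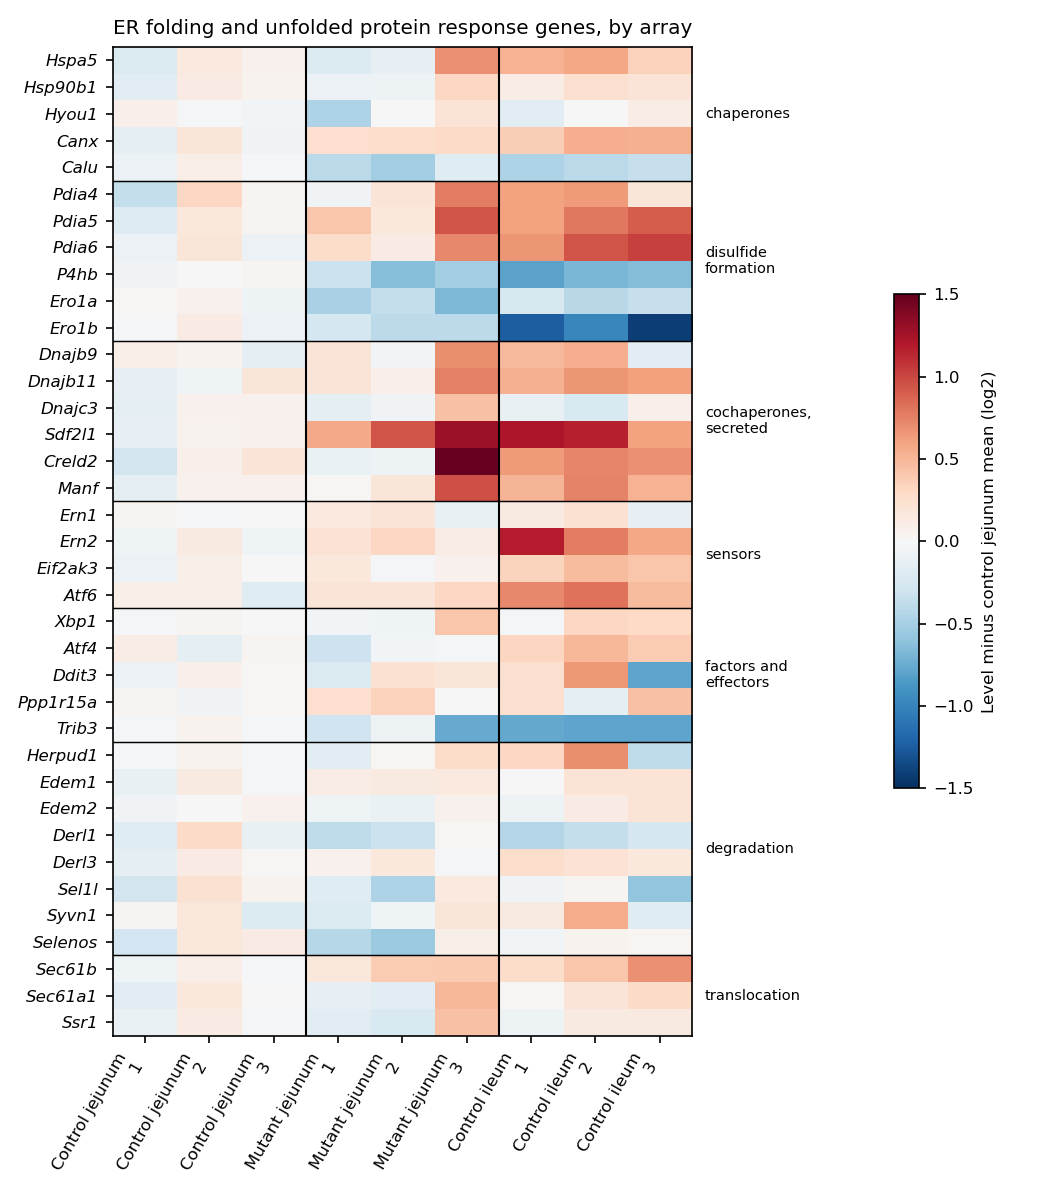
Level of each of the 37 genes on each array minus the control jejunum mean (log2, colour from -1.5 to 1.5, values beyond are drawn at the end of the scale), with the genes in rows by role and the 9 arrays in columns. The largest value is Creld2 on mutant jejunum 3, where it stood at 10.44 against a control jejunum mean of 8.90, and Sdf2l1 is higher than in control jejunum in every mutant and ileum column.

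Mutant against control jejunum tests which of these transcripts differed between mice with no wild-type copy of Gata4 beside the loxP-flanked one and mice with 1. Sdf2l1, a cofactor of the chaperone Hspa5, rose 1.91-fold, and the disulfide isomerase P4hb and the oxidase Ero1a fell 1.41-fold and 1.42-fold. The other 34 genes were not called, among them Hspa5, Xbp1, Ddit3 and all 4 sensors. The counts of 1 gene higher and 2 lower of 37 stand beside the whole array, where 2.1% of 13830 genes were called higher and 2.29% lower. The median difference over the 37 genes was 0.07, beside 0.0008 over all genes tested. Counting all 85 tested probe sets of these genes, 3 were higher and 2 lower, beside 3.56% of all probe sets called in either direction. The count of 3 genes fell to 0 without control jejunum 2, control jejunum 3 or mutant jejunum 2, and to 1 without control jejunum 1, mutant jejunum 3 or control ileum 2. It was also 1 without scaling between arrays, with arrays centred on their medians, without the filter on low values and with the replicate number as a block, and 0 without the intensity trend (Ero1a, P4hb and Sdf2l1 at adjusted p = 0.0783, 0.0812 and 0.0523).

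The comparison of control ileum with control jejunum shows how the same genes differ between the segments. In ileum 10 of the 37 genes were higher and 4 lower after quantile normalization, but 0 higher and 11 lower without scaling between arrays, and 5 higher and 6 lower with arrays centred on their medians. The genes called higher were the sensors Ern2, Eif2ak3 and Atf6, the factor Atf4, the chaperone Canx, the isomerases Pdia5 and Pdia6, the cofactors Dnajb11 and Sdf2l1, and the channel subunit Sec61b. The genes called lower were Calu, P4hb, Ero1b and Trib3. On the whole array 8.79% of genes were called higher and 9.12% lower. These shares were 2.29% and 36.1% without scaling, and 5.38% and 10.9% with centring. The median difference over the 37 genes was 0.18, beside 0.03 over all genes, and these medians became -0.35 and -0.42 without scaling and 0.01 and -0.05 with centring. Counting all tested probe sets, 17 of 85 were higher and 7 lower, beside 16.2% of all probe sets called in either direction. The count of 14 genes fell to 8 without control jejunum 1, control ileum 2 or control ileum 3 and to 9 without control jejunum 3, and it was 18 without mutant jejunum 3. It was 17 with array weights, beside 11.9% of all genes higher and 11.5% lower. In the fit of the 2 groups alone it was also 17, beside 9.55% and 9.42%. Without the intensity trend it was 10, beside 7.9% and 8.03%.

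The last comparison sets mutant jejunum against control ileum. Ero1b was higher in mutant jejunum than in ileum and Atf4 lower, and the other 35 genes were not called. On the whole array 1.97% of genes were called higher and 1.7% lower, and 2.65% of probe sets in either direction, while the 37 genes gave 1 probe set higher and 2 lower. Their median difference was -0.14, beside -0.02 over all genes, and it became 0.46 (all genes 0.44) without scaling and 0.15 (all genes 0.13) with centring. Without scaling 13 genes were called, all higher in the mutant, beside 33.2% of all genes higher and 0.654% lower. With array weights 7 were called, 2 higher and 5 lower, beside 3.83% and 3.67% of all genes. The count of 2 became 0 without mutant jejunum 1, and 1 without any 1 of the control arrays or mutant jejunum 2. It became 7 without mutant jejunum 3, beside 2.7% of all genes higher and 2.31% lower. Each pair of comparisons shares the arrays of 1 group, so the values of a gene in them are set side by side below and not compared as if independent.

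**Figure D2:**
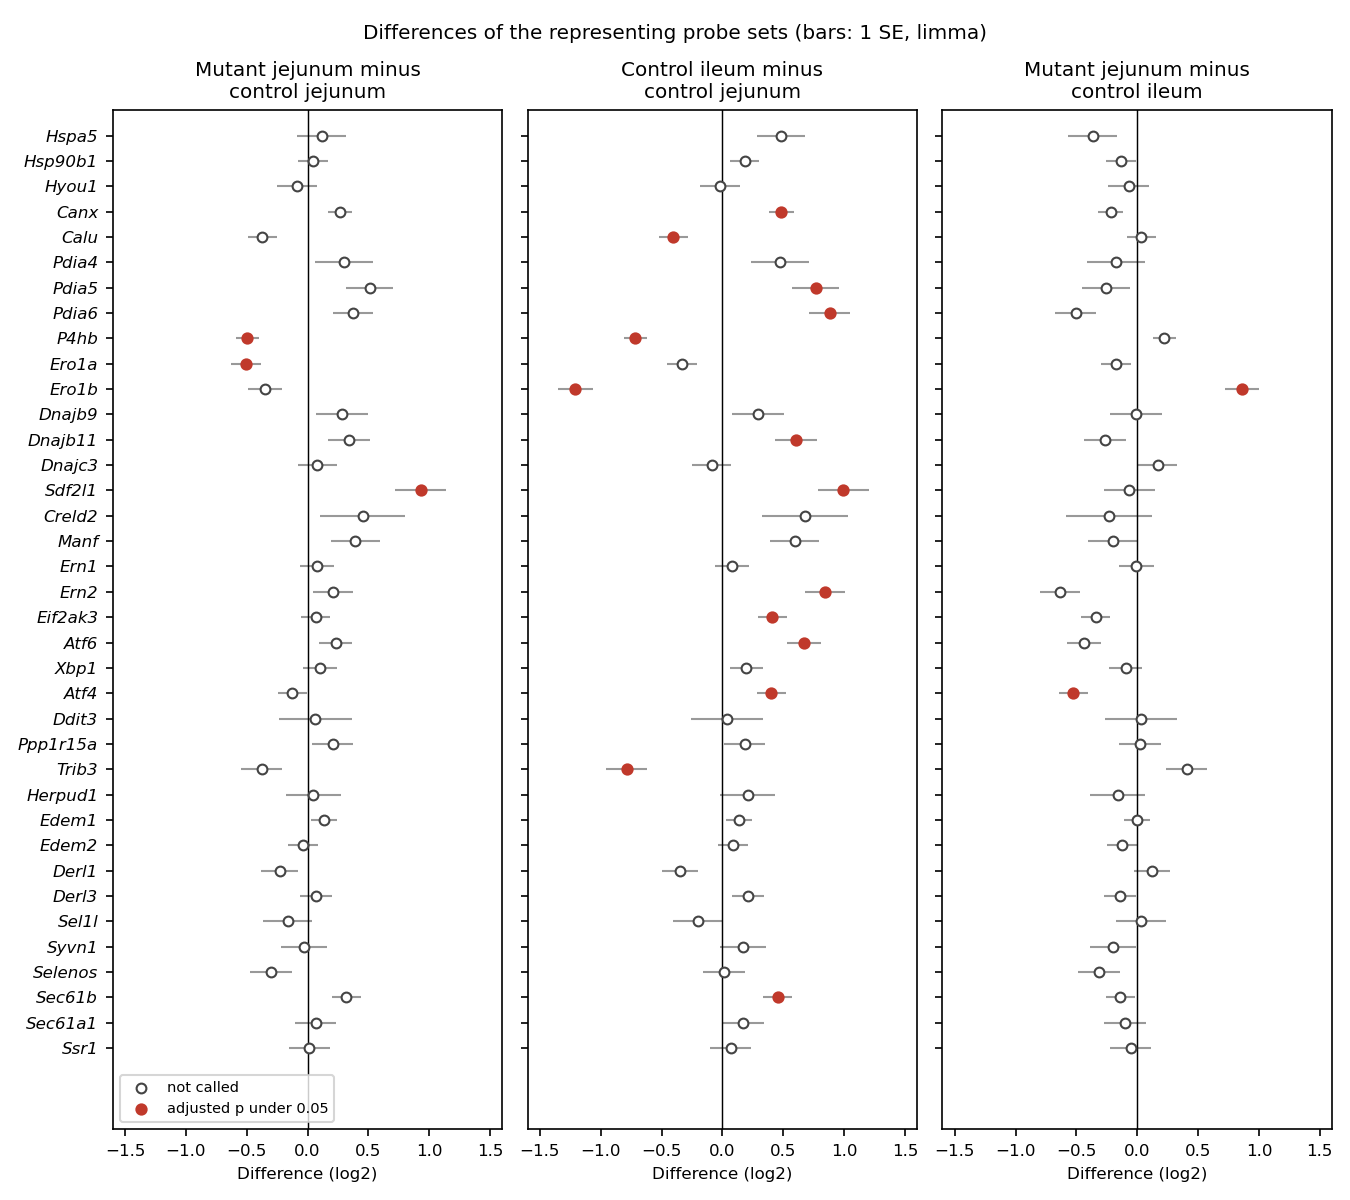
Differences of the 37 genes in the 3 comparisons (horizontal axis, log2, from limma on quantile-normalized levels; genes in rows; bars are 1 SE; filled points have an adjusted p under 0.05). P4hb, Ero1a and Sdf2l1 are filled on the left, 14 genes in the middle and Ero1b and Atf4 on the right. Without scaling between arrays the middle counts turn to 0 higher and 11 lower, beside 2.29% and 36.1% of all genes.

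Among the chaperones, Hspa5 is an abundant folding factor of the endoplasmic reticulum and a usual readout of the unfolded protein response. It stood at 11.93, 12.29 and 12.20 in control jejunum 1 to 3, at 11.94, 12.01 and 12.82 in mutant jejunum 1 to 3 and at 12.66, 12.72 and 12.49 in control ileum 1 to 3. On this brightest probe set the ileum arrays all lay above the control jejunum arrays, and a single mutant array, mutant jejunum 3, lay above both. Hspa5 was not called in any comparison: its difference was 0.12 between mutant and control jejunum (adjusted p = 0.832), 0.48 between ileum and jejunum (0.128) and -0.36 between mutant and ileum (0.409). Without mutant jejunum 3 it was called higher in ileum than in control jejunum (0.47, adjusted p = 0.0103) and lower in mutant than in ileum (-0.64, adjusted p = 0.0189). With array weights both were called too (0.50, adjusted p = 0.0356, and -0.57, 0.0486). The fit of the 2 groups alone called the ileal one (0.0178). The second probe set also had ileum and mutant jejunum 3 above every control jejunum array, with no call. On the dimmest, mutant jejunum 3 was the lowest of the 9 arrays (8.67) and every mutant array lay below control jejunum (-0.29, adjusted p = 0.357). There ileum overlapped control jejunum (-0.06, 0.821).

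Canx, which binds newly made glycoproteins through their glucose-tipped sugars, stood at 11.39, 11.71 and 11.47 in control jejunum, 11.77, 11.79 and 11.82 in mutant jejunum and 11.90, 12.07 and 12.06 in ileum. The 3 groups did not overlap and followed one another in that order. The difference was 0.27 in mutant over control jejunum (adjusted p = 0.206) and 0.48 in ileum over jejunum (SE 0.10, adjusted p = 0.00839, 1.4-fold). The ileal call was lost without scaling, where the difference was -0.05, and with centring (0.31, adjusted p = 0.11). Hsp90b1 (Grp94), the reticulum's form of Hsp90, was at 11.75 ± 0.15, 11.80 ± 0.23 and 11.94 ± 0.06 in control jejunum, mutant jejunum and ileum and was not called on its brightest probe set. Hyou1, an exchange factor for Hspa5, was at 8.83 ± 0.06, 8.74 ± 0.35 and 8.81 ± 0.14 and was not called either. Calu, a calcium-binding protein of the secretory pathway, went the other way, at 9.86, 10.05 and 9.93 in control jejunum, 9.54, 9.42 and 9.77 in mutant jejunum and 9.49, 9.54 and 9.61 in ileum. Control jejunum stood above both other groups, with a called difference for ileum (-0.40, SE 0.12, adjusted p = 0.0415) and none for the mutant (-0.37, adjusted p = 0.133). The ileal call of Calu was kept with mutant jejunum 2 or 3 left out and lost with any 1 of the other 7 arrays left out, at adjusted p = 0.0541 to 0.141.

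Disulfide bonds are formed by isomerases of the Pdia family and P4hb, and the oxidases Ero1a and Ero1b return electrons from them to oxygen. P4hb, the founding member of the isomerase family and also a subunit of prolyl hydroxylase and of the lipid transfer protein that loads apolipoprotein B, stood at 12.97, 13.03 and 13.06 in control jejunum. It stood at 12.70, 12.38 and 12.50 in mutant jejunum and at 12.22, 12.33 and 12.37 in ileum. The groups did not overlap: every mutant array lay below every control jejunum array and above every ileum array. P4hb fell in the mutant by 0.49 on the log2 scale (SE 0.09, adjusted p = 0.0171) and was lower in ileum than in jejunum by 0.72 (difference -0.72, adjusted p = 0.000603, 1.64-fold). The mutant-ileum difference of 0.22 was not called (adjusted p = 0.278). The ileal call held under all 12 other settings and without each array in turn, while the mutant call did not hold on leaving out control jejunum 2 (adjusted p = 0.0761), control jejunum 3 (0.0793) or mutant jejunum 2 (0.0784), and without scaling (0.263) or with centring (0.156).

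Ero1a stood at 9.53, 9.58 and 9.43 in control jejunum, 9.02, 9.16 and 8.84 in mutant jejunum and 9.28, 9.10 and 9.17 in ileum. Control jejunum lay above the other groups, which overlapped. It fell in the mutant by 0.51 (difference -0.51, SE 0.12, adjusted p = 0.0445), and the ileal difference of -0.33 was not called (0.0841). It was called without scaling (-0.86, adjusted p = 0.00374), with centring (-0.50, adjusted p = 0.0466), with array weights (0.0443) and without mutant jejunum 3 (0.046). The mutant call did not hold without any 1 of the 9 arrays (adjusted p = 0.0518 to 0.167) and held under 5 of 12 other settings. Ero1b, the second oxidase, known from pancreas and other secretory tissue, stood at 8.28, 8.43 and 8.22 in control jejunum, 8.04, 7.91 and 7.92 in mutant jejunum and 7.08, 7.33 and 6.90 in ileum. The 3 groups did not overlap, and the larger gap was that between the mutant and ileum. Ero1b was lower in ileum than in control jejunum (-1.21, SE 0.14, adjusted p = 0.000266, 2.31-fold) and higher in mutant than in ileum (0.86, adjusted p = 0.0129, 1.81-fold). Its difference between mutant and control jejunum was -0.35 (adjusted p = 0.236). The 2 calls held under all 12 other settings, and the second was lost only without mutant jejunum 1 (adjusted p = 0.0601).

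The Pdia isomerases had the opposite direction from P4hb in ileum. Pdia6 stood at 9.48, 9.75 and 9.49 in control jejunum, 9.85, 9.69 and 10.29 in mutant jejunum and 10.24, 10.52 and 10.60 in ileum. Ileum lay above control jejunum on all arrays, and the mutant overlapped both. The ileal difference was 0.88 (SE 0.17, adjusted p = 0.00479, 1.84-fold), lost only without scaling (0.32, adjusted p = 0.19), and the mutant difference from control jejunum was 0.37 (0.282). Pdia5 had levels of 7.59, 7.94 and 7.83 in control jejunum, 8.21, 7.95 and 8.74 in the mutant and 8.39, 8.58 and 8.70 in ileum. Both other groups lay above control jejunum, the mutant only narrowly, and ileum was called (0.77, SE 0.19, adjusted p = 0.0219, 1.7-fold). Its call was lost without control jejunum 1, control jejunum 3, control ileum 2 or control ileum 3 (adjusted p = 0.0589 to 0.0719) and without scaling (0.321). Pdia4 was at 6.54 ± 0.34, 6.85 ± 0.42 and 7.02 ± 0.25 and was not called.

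**Figure D3:**
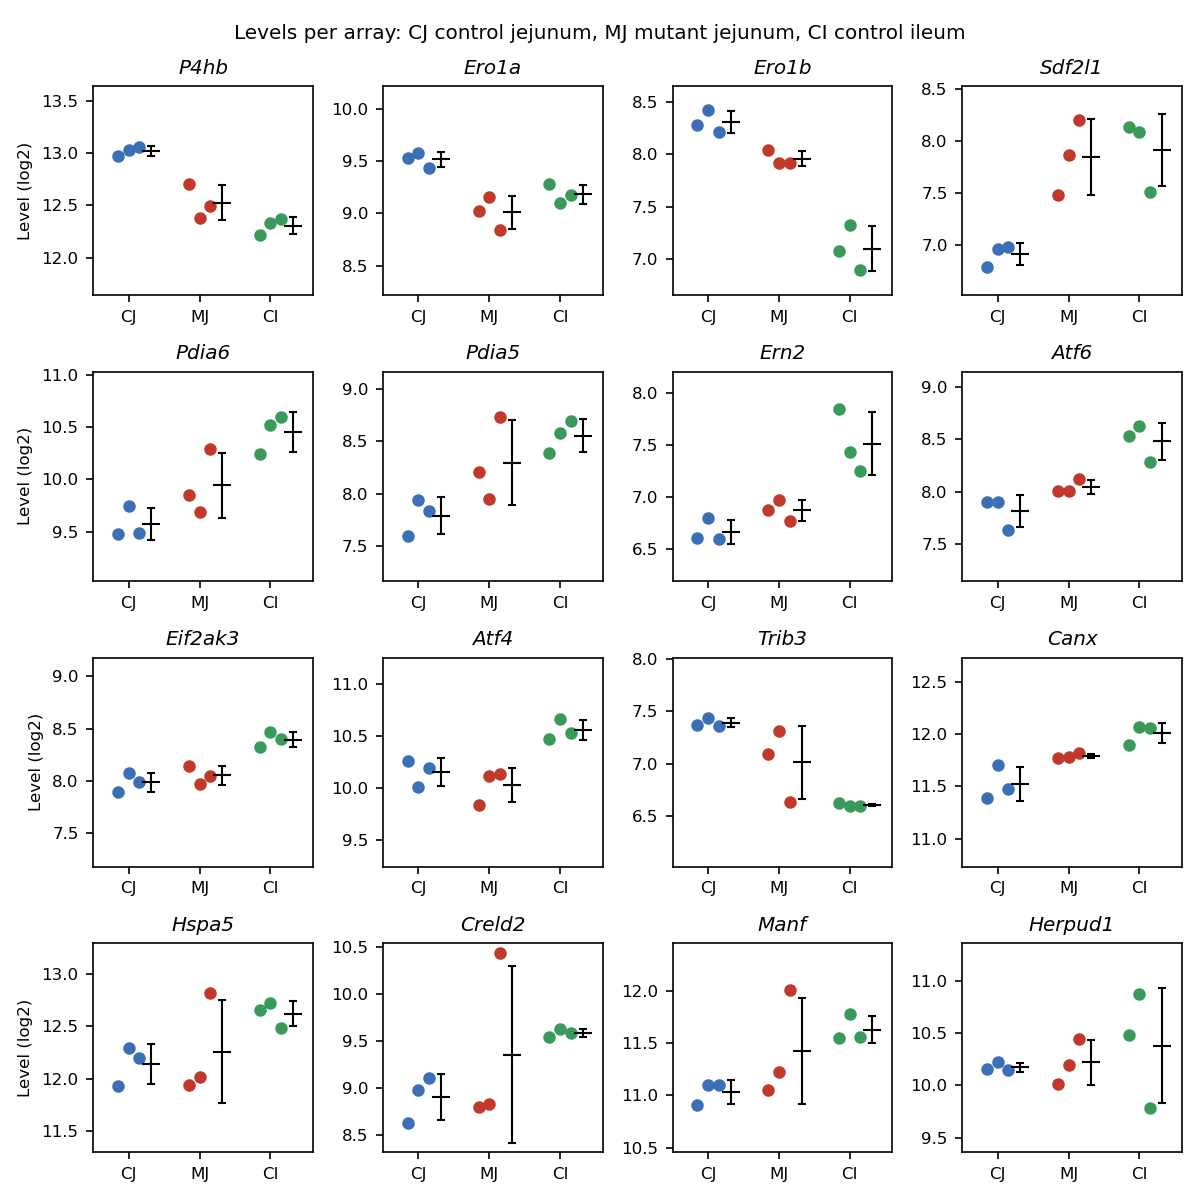
Levels of 16 of the genes on every array (vertical axis, normalized log2(intensity + 16), each panel on its own axis), with control jejunum in blue, mutant jejunum in red and control ileum in green; the cross and bar give mean and SD of 3 arrays. P4hb and Ero1b step down from control jejunum through mutant to ileum, while Hspa5, Creld2 and Manf are high on a single mutant array, mutant jejunum 3.

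Cofactors of Hspa5 and small secreted targets of the response made up a further 6 genes. Sdf2l1, which forms a complex with Hspa5 and its J-domain partners, stood at 6.80, 6.97 and 6.98 in control jejunum, 7.48, 7.86 and 8.20 in mutant jejunum and 8.13, 8.09 and 7.51 in ileum. Every mutant and every ileum array lay above every control jejunum array, and mutant and ileum overlapped. Sdf2l1 rose in the mutant by 0.93 (SE 0.21, adjusted p = 0.0359, 1.91-fold) and was higher in ileum than in jejunum by 0.99 (adjusted p = 0.0087, 1.99-fold). The mutant call was lost without control jejunum 1, 2 or 3, mutant jejunum 2 or 3 or control ileum 2 (adjusted p = 0.0534 to 0.113), whereas the ileal call held without each array in turn and was lost only without scaling (0.52, adjusted p = 0.0555). Dnajb11, a J-domain cofactor that hands clients to Hspa5, ran from 8.94 to 9.24 in control jejunum, from 9.14 to 9.81 in the mutant and from 9.60 to 9.72 in ileum. Its ileal difference of 0.60 was called (SE 0.17, adjusted p = 0.0347, 1.52-fold), though it was lost without control jejunum 1 or 2 or any 1 ileum array (adjusted p = 0.0643 to 0.107). Without scaling it was 0.05 (adjusted p = 0.852), and it was not called with centring (0.41, adjusted p = 0.137) or without the intensity trend (0.0516).

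Creld2 and Manf are small secreted proteins that the unfolded protein response induces. Creld2 stood at 8.63, 8.98 and 9.10 in control jejunum, 8.80, 8.83 and 10.44 in mutant jejunum and 9.54, 9.63 and 9.58 in ileum. Manf had levels of 10.91, 11.10 and 11.10 in control jejunum, 11.05, 11.22 and 12.01 in the mutant and 11.55, 11.78 and 11.56 in ileum. In both genes the ileum arrays lay above all control jejunum arrays, 2 mutant arrays lay near control jejunum and mutant jejunum 3 lay above every ileum array. Neither gene was called in ileum over jejunum with all 9 arrays (0.68, adjusted p = 0.217, and 0.59, adjusted p = 0.0698). Both were called without mutant jejunum 3 (adjusted p = 0.00541 and 0.00276), since the groups share 1 estimate of the spread, and Manf also without mutant jejunum 1 (0.0471). The fit of the 2 groups alone called both as well (0.0112 and 0.00493), and array weights called Manf (0.0139). Dnajb9, a cofactor that represses Ern1, was at 10.33 ± 0.13, 10.62 ± 0.38 and 10.63 ± 0.39. Dnajc3, a further J-domain cofactor and inhibitor of Eif2ak3, had levels of 9.64, 9.84 and 9.85 in control jejunum, 9.63, 9.73 and 10.21 in the mutant and 9.66, 9.54 and 9.86 in ileum, and its groups overlapped. Neither was called on its brightest probe set.

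Of the 4 sensors, Ern2, Atf6 and Eif2ak3 were called higher in ileum than in control jejunum, and Ern1 was not. Without scaling the called difference of Eif2ak3 turned negative (-0.09), and so did the uncalled one of Ern1 (-0.40). Ern2 stood at 6.61, 6.80 and 6.60 in control jejunum, 6.88, 6.98 and 6.78 in mutant jejunum and 7.84, 7.43 and 7.25 in ileum. Ileum lay above both jejunum groups, which overlapped slightly. The ileal difference of Ern2 was 0.84 (SE 0.16, adjusted p = 0.00598, 1.79-fold), and it was lost only without scaling (0.39, adjusted p = 0.0884). Between mutant and control jejunum it was 0.21 (adjusted p = 0.576), and between mutant and ileum -0.63 (0.072). Atf6 had levels of 7.90, 7.90 and 7.63 in control jejunum, 8.00, 8.01 and 8.12 in the mutant and 8.53, 8.63 and 8.28 in ileum, so that the 3 groups did not overlap. Its ileal difference was 0.67 (SE 0.14, adjusted p = 0.00776, 1.59-fold), lost only without scaling (0.17, adjusted p = 0.452), and its mutant difference was 0.23 (0.438).

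Eif2ak3 stood at 7.89, 8.07 and 7.99 in control jejunum, 8.15, 7.97 and 8.05 in mutant jejunum and 8.32, 8.47 and 8.40 in ileum. Only the ileum arrays stood apart. Its ileal difference of 0.41 (SE 0.12, adjusted p = 0.039, 1.33-fold) was -0.09 without scaling, was not called with centring (0.27, adjusted p = 0.244) or with the replicate number as a block (0.0599), and was kept only with mutant jejunum 1 or 3 left out among the 9 arrays (otherwise 0.0529 to 0.119). Ern1, the ubiquitous IRE1, had levels of 7.79, 7.71 and 7.73 in control jejunum, 7.89, 7.93 and 7.63 in the mutant and 7.88, 7.97 and 7.61 in ileum. The groups of Ern1 overlapped, and its difference was 0.08 both in mutant and in ileum (adjusted p = 0.848 and 0.739).

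Of the 5 factors and effectors downstream of the sensors, none was called in the mutant, and Atf4 was higher and Trib3 lower in ileum. Xbp1 stood at 11.81, 11.88 and 11.83 in control jejunum, 11.79, 11.77 and 12.26 in mutant jejunum and 11.82, 12.14 and 12.13 in ileum. The groups overlapped, with differences of 0.10 (adjusted p = 0.774) and 0.20 (0.367), and the probe sets do not tell spliced from unspliced message. Atf4 had levels of 10.26, 10.01 and 10.19 in control jejunum, 9.84, 10.11 and 10.13 in the mutant and 10.47, 10.66 and 10.53 in ileum. Ileum lay above both jejunum groups, by 0.40 over control (SE 0.12, adjusted p = 0.0436, 1.32-fold) and with a difference of -0.52 for mutant minus ileum (adjusted p = 0.0452, 1.44-fold). These 2 calls changed under most alternatives: without scaling the differences were -0.18 and 0.10, and the calls held under 5 and 4 of 12 other settings and with 2 and 1 of the 9 arrays left out (otherwise adjusted p = 0.0546 to 0.155 and 0.0557 to 0.166). Much of the control of Atf4 is translational, which arrays do not measure.

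Trib3, a pseudokinase that Ddit3 and Atf4 induce, stood at 7.37, 7.44 and 7.36 in control jejunum, 7.09, 7.32 and 6.63 in mutant jejunum and 6.62, 6.60 and 6.60 in ileum. The 3 groups did not overlap, and mutant jejunum 3 lay beside the ileum arrays. Trib3 was lower in ileum by 0.79 (difference -0.79, SE 0.17, adjusted p = 0.00955, 1.72-fold), under all 12 other settings and without each array in turn, and its mutant difference of -0.38 was not called (0.285). Ddit3, the factor CHOP, had levels of 7.25, 7.41 and 7.36 in control jejunum, 7.12, 7.57 and 7.52 in the mutant and 7.58, 8.00 and 6.55 in ileum. The ileum arrays spanned the whole range of the other groups, and Ddit3 was not called. Ppp1r15a (GADD34), which restores translation after Eif2ak3 has slowed it, was at 6.52 ± 0.05, 6.72 ± 0.18 and 6.70 ± 0.29 and was not called.

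The 8 genes that recognise and retrotranslocate misfolded proteins for degradation gave no call on their brightest probe sets after quantile normalization. Their differences lay between -0.30 and 0.13 in mutant and between -0.35 and 0.21 in ileum. Herpud1, a scaffold of the degradation complex, stood at 10.16, 10.22 and 10.14 in control jejunum, 10.02, 10.20 and 10.45 in mutant jejunum and 10.48, 10.87 and 9.79 in ileum. Its ileum arrays lay above and below all others, and control ileum 3 was the low one, as for Ddit3. Its other probe set stood at 9.24, 10.47 and 8.31 on the ileum arrays, again lowest on control ileum 3. That array lay below the mean of the other ileum arrays for Dnajb9 (difference -0.68), Sdf2l1 (-0.59), Sel1l (-0.58) and the ubiquitin ligase Syvn1 (-0.53) as well. Over all 37 genes its median difference from them was 0.0019, so these genes do not stand for the whole set. Sel1l, the partner of Syvn1, was at 9.86 ± 0.25, 9.70 ± 0.30 and 9.67 ± 0.34, and Syvn1 at 8.98 ± 0.19, 8.95 ± 0.20 and 9.15 ± 0.37. The mannosidase-like lectins Edem1 and Edem2 had differences from control jejunum between -0.04 and 0.14, and the channel-forming derlin Derl3 of 0.07 and 0.21. Derl1 had -0.23 in mutant and -0.35 in ileum, and Selenos, a selenoprotein that links derlins to the extraction machinery, had -0.30 and 0.02. Derl1 was called lower in ileum without scaling (-0.92, adjusted p = 0.00149) and with centring (-0.56, 0.014). Sel1l (-0.74, 0.0128) and Selenos (-0.56, 0.03) were called lower in ileum only without scaling, beside 36.1% of all genes. Without scaling Derl1, Edem1 and Sel1l were also called higher in mutant than in ileum, beside 33.2% of all genes.

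Of the translocation genes, Sec61b, a small subunit of the channel, stood at 11.08, 11.24 and 11.12 in control jejunum, 11.31, 11.53 and 11.54 in mutant jejunum and 11.42, 11.55 and 11.82 in ileum. Both other groups lay above control jejunum, and ileum was called (0.45, SE 0.12, adjusted p = 0.0258) while the mutant was not (0.32, adjusted p = 0.205). The ileal difference was -0.10 without scaling and was not called with centring (0.26, adjusted p = 0.244), nor without control jejunum 1 or 3 or control ileum 2 or 3 (0.0602 to 0.0831). The pore subunit Sec61a1 and Ssr1, a subunit of the translocon-associated complex, had differences between 0.01 and 0.17 and were not called.

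Mutant jejunum 3 set the spread of the mutant group for a share of these genes. Its level minus the mean of the other mutant arrays had a median of 0.34 over the 37 genes, and it was the higher for 28 of them, against a median of 0.0046 and 50.4% over all genes tested. The genes furthest above the other mutant arrays were Creld2 (1.63), Manf (0.87), Hspa5 (0.85), Pdia4 (0.70), Pdia5 (0.66) and Sec61a1 (0.65). Trib3 was furthest below (-0.57), followed by Ppp1r15a (-0.30) and Ern1 (-0.28). The mean level over the 37 genes was 9.30 and 9.34 on mutant jejunum 1 and 2 and 9.63 on mutant jejunum 3, against 9.26 to 9.44 on control jejunum and 9.46 to 9.62 on ileum. Without that array the median difference of the mutant from control jejunum changed from 0.07 to -0.07, and that from ileum from -0.14 to -0.24. Hspa5, Creld2, Manf and Pdia6 were then called lower in mutant than in ileum (differences -0.64, -0.77, -0.49 and -0.68), and Trib3 higher (0.60). Marker lists moved on that array too, in mean level against mutant jejunum 1 and 2. It was higher for T cells (9.04, against 8.62 and 8.64), macrophages and dendritic cells (8.74, against 8.06 and 8.13), ileal enterocytes (11.59, against 10.71 and 10.69) and cell cycle genes (8.66, against 8.11 and 8.27). It was lower for smooth muscle (8.54, against 8.93 and 9.32) and enterocytes (12.15, against 12.38 and 12.35). The part of these lists in the members' values was not tested.

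Of the 37 genes, 24 had several tested probe sets, and for 12 of them these were not called alike in at least 1 comparison. The second probe set of Canx stood at 9.28, 9.07 and 9.09 in control jejunum, 10.09, 10.09 and 10.07 in mutant jejunum and 10.17, 10.22 and 10.31 in ileum. On it the mutant rose by 0.94 (SE 0.10, adjusted p = 0.000582) and ileum was higher by 1.08 (adjusted p = 7.26e-05), against 0.27 and 0.48 on the brightest probe set and 0.47 (adjusted p = 0.0658) and 0.53 (0.0144) on the dimmest. All 3 probe sets of Canx had every mutant array above every control jejunum array, and the size of the difference depended on the probe set. With the mean of its probe sets in place of the brightest, Canx was called in the mutant (0.56, adjusted p = 0.00829). The second probe set of Hsp90b1 stood at 10.11, 9.73 and 9.94 in control jejunum, 10.46, 10.43 and 10.80 in mutant jejunum and 11.16, 11.18 and 11.19 in ileum. The 3 groups did not overlap on it, with differences of 0.64 in mutant (adjusted p = 0.0237), 1.25 in ileum (0.000123) and -0.61 for mutant minus ileum (0.0347), none of which the brightest probe set showed.

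For Ero1a the reverse held, since the brightest probe set alone was called: the other probe sets had mutant differences of -0.29 (adjusted p = 0.399) and 0.01 (0.981). Of 6 probe sets of Sec61a1, 2 were called higher in ileum (0.55, adjusted p = 0.0305, and 0.61, adjusted p = 0.0153), as was 1 of 5 of Dnajc3 (0.46, adjusted p = 0.0291), and 1 of 4 of Derl1 was called lower (-0.45, adjusted p = 0.0421). The second probe sets of Ero1b (-0.85, adjusted p = 0.0114), Trib3 (-0.75, adjusted p = 0.0369) and Atf6 (0.54, adjusted p = 0.0353) were called in ileum in the direction of the first. The second probe set of Atf4 had an ileal difference of -0.02 (adjusted p = 0.947), so the ileal call of Atf4 rests on its brightest probe set. The second probe sets of Calu (-0.51, adjusted p = 0.245), Pdia6 (0.37, adjusted p = 0.361) and Eif2ak3 (0.33, adjusted p = 0.239) had ileal differences in the direction of the first and were not called, and neither were the dimmest of Atf6 in ileum (0.109) nor the second of Ero1b in mutant against ileum (0.0629). The position of these probe sets in the transcripts was not analysed here.

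**Figure D4:**
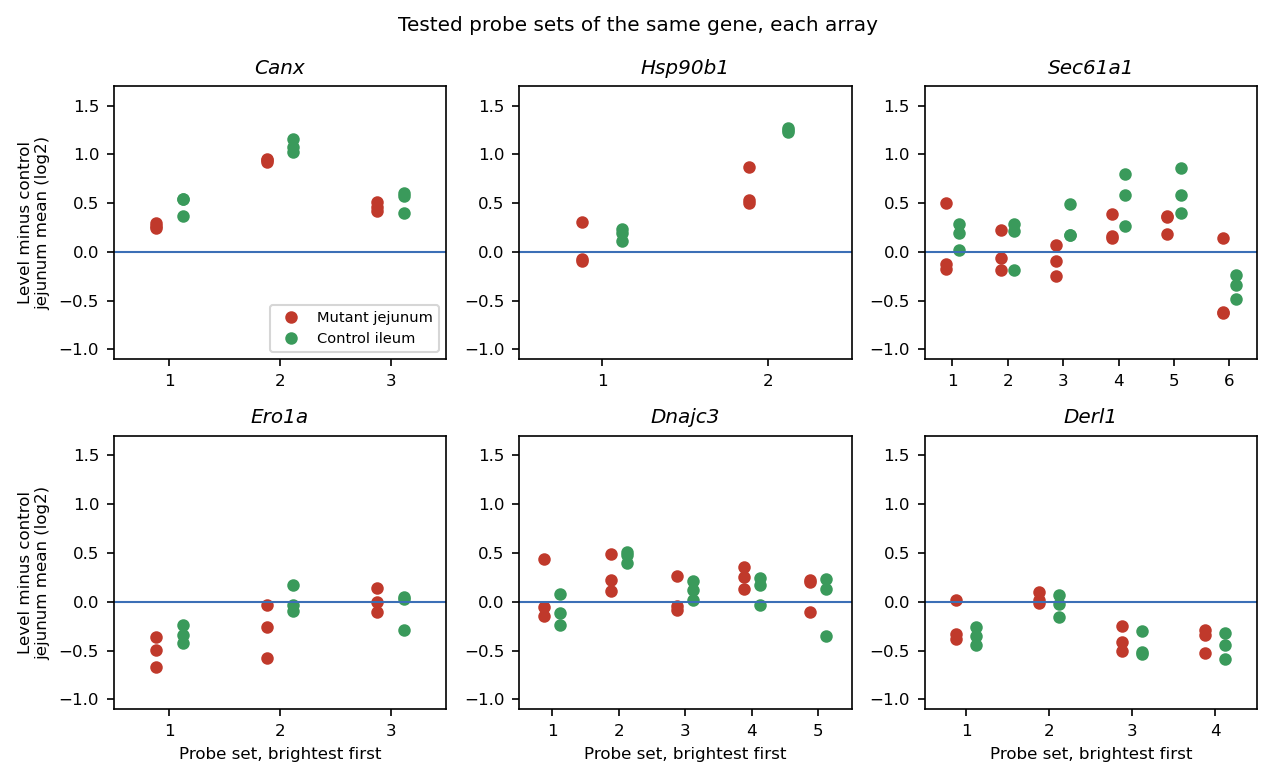
Tested probe sets of 6 genes, numbered from the brightest (horizontal axis), as the level of each mutant jejunum array (red) and control ileum array (green) minus the control jejunum mean of that probe set (vertical axis, log2; the blue line is the control jejunum mean). The second probe sets of Canx and Hsp90b1 stand further above the line than the first, and of Ero1a the first probe set alone has all 6 points below it.

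The rest of the pathway was read from 5 further gene lists. Of 31 tested genes of translocation, signal cleavage and glycosylation, 1 was higher and 0 lower in mutant over control jejunum, and 5 were higher and 0 lower in ileum (0 and 11 without scaling, 0 and 0 with centring). The mutant call was Ssr4, a subunit of the translocon-associated complex (0.47, adjusted p = 0.0464), and the largest ileal ones were the signal peptidase subunits Sec11c (0.69) and Spcs3 (0.60) and the oligosaccharyltransferase subunits Ddost (0.60) and Rpn2 (0.52). Of 39 tested further folding genes, 0 were higher and 1 lower in mutant, and 7 were higher and 2 lower in ileum (1 and 12 without scaling, 2 and 3 with centring). Kdelr1, the receptor that returns escaped residents such as Hspa5 and P4hb from the Golgi, fell in the mutant (-0.54, adjusted p = 0.0123) and was lower in ileum (-0.66). The largest other ileal differences were those of the prolyl isomerase Fkbp11 (1.00), the goblet cell disulfide isomerase Agr2 (0.97) and the glucosidase subunit Ganab (-0.70), and Agr2 was lower in mutant than in ileum (-0.62, but -0.09 and not called without scaling, adjusted p = 0.719). Of 27 tested further degradation genes none was called in the mutant, and 2 were higher and 2 lower in ileum (0 and 17 without scaling, 0 and 3 with centring). These were Selenok (0.55), Sel1l3 (0.42), Marchf6 (-0.49) and Fam8a1 (-0.43). Without scaling the mutant differences of Ssr4 and Kdelr1 kept their direction and were not called (0.53 and -0.46, adjusted p = 0.177 and 0.217). The counts after quantile normalization stand beside the shares of all genes, 2.1% higher and 2.29% lower in mutant and 8.79% and 9.12% in ileum. For the other scalings these ileal shares were 2.29% and 36.1% without scaling, and 5.38% and 10.9% with centring.

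Of 31 tested targets of Atf4, 0 were higher and 2 lower in the mutant, namely Slc3a2, the heavy chain of amino acid transporters (-1.04, adjusted p = 0.000582), and the transcription factor Cebpb (-0.81, adjusted p = 0.0261). In ileum 5 were higher, with Nupr1 (2.53) and Ddit4 (0.96) the largest, and 3 lower, with Slc3a2 (-1.14) and the proline synthesis enzyme Aldh18a1 (-0.97) the largest (1 higher and 9 lower without scaling, 3 and 3 with centring). Nupr1 also stands on the list of Paneth cell markers, and it was lower in mutant than in ileum (-1.92). Of the promoters of this list, 6 of 30 (20.0%) held the C/EBP-ATF element. Of 27 tested further regulators 0 were higher and 1 lower in the mutant. That gene was Creb3l2, a membrane-bound factor related to Atf6, with 9.67 ± 0.07 in control jejunum, 7.67 ± 0.28 in the mutant and 7.52 ± 0.15 in ileum. It fell by 2.00 in the mutant (adjusted p = 6.79e-05), more than any of the 37 genes, and its ileal difference was -2.16. Its relatives differed in direction between the segments: Creb3l3 was lower in ileum (-2.62) and Creb3l4 higher (1.32), and in mutant minus ileum they had 2.14 and -0.91. The antioxidant factor Nfe2l2, which Eif2ak3 phosphorylates, was lower in ileum (-1.17) and higher in mutant than in ileum (0.64). In all, 2 of these regulators were higher and 7 lower in ileum, and 1 and 13 without scaling. Of all genes 8.79% were higher and 9.12% lower in ileum, 2.29% and 36.1% without scaling and 5.38% and 10.9% with centring. In the mutant these shares were 2.1% and 2.29%. Creb3l2 and Slc3a2 were called lower in the mutant under each of the 4 scalings, and Cebpb was not called without scaling or with centring (adjusted p = 0.079 and 0.0648).

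Markers of secretory and other cell types also differed between the segments. Of 14 goblet cell markers 7 were higher and 2 lower in ileum (4 and 3 without scaling), and their mean level was 9.54 to 9.60 on control jejunum, 9.70 to 9.86 on mutant jejunum and 9.91 to 10.13 on ileum arrays. The largest were Tpsg1 (1.15), Spdef, the factor that drives goblet cell maturation (1.13), Galnt12 (1.01) and Ccl9 (0.99), and Spdef was also called in the mutant (0.59, adjusted p = 0.0472, but 0.0725 without scaling). Of 6 tested Paneth cell markers 4 were higher in ileum (2 of 7 without scaling), with Nupr1 (2.53) and Mmp7 (1.91) the largest, and their mean level was 10.23 to 11.43, 10.23 to 11.44 and 11.74 to 12.50 in the same order. Of 11 tested B and plasma cell markers 3 were lower in ileum (8 without scaling), among them Tnfrsf17 (-1.25) and Jchain (-0.65), at mean levels of 7.73 to 8.28, 7.71 to 7.97 and 7.17 to 7.81. Of 10 smooth muscle markers 9 were higher in ileum (1 without scaling) and none was called in the mutant. T cell markers were lower in ileum in 4 of 8 tested genes (7 without scaling), and macrophage and dendritic cell markers in 3 of 10 (8 without scaling). Of 9 tested enteroendocrine markers 1 was higher and 1 lower in ileum, of 9 enterocyte markers 1 and 2, of 13 cell cycle genes 1 and 0, and of 14 immediate early genes 1 and 0. Without scaling these splits were 0 and 3, 0 and 6, 0 and 2, and 0 and 5. In the mutant 1 enteroendocrine and 1 acinar marker were called lower and 1 immediate early gene higher. The 4 markers of ileal enterocytes were all higher in the mutant, and 3 of them in ileum. All genes tested gave 8.79% higher and 9.12% lower in ileum (2.29% and 36.1% without scaling), and 2.1% and 2.29% in the mutant. In mutant against ileum 0 smooth muscle markers were higher and 8 lower (0 and 4 without scaling). Paneth cell markers gave 0 and 4 (0 and 3), and T cell markers 4 and 0 (8 and 0). Goblet cell markers gave 0 and 1 (3 and 0), and B and plasma cell markers 0 and 0 (7 and 0). All genes gave 1.97% and 1.7% there, and 33.2% and 0.654% without scaling. Pancreatic acinar markers were dim, with 7 of 14 tested and means of 5.74 to 6.40 on the 9 arrays. The part of these cell types in the differences of the 37 genes was not tested.

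**Figure D5:**
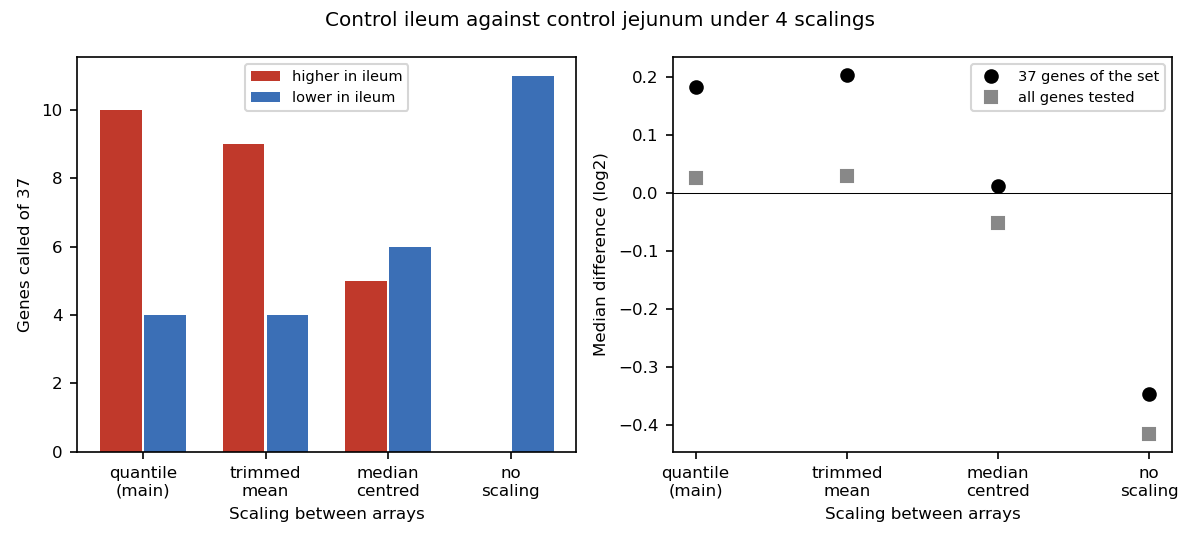
Control ileum against control jejunum under 4 scalings between arrays (horizontal axis): the number of the 37 genes called higher (red) and lower (blue) on the left, and the median log2 difference of the 37 genes (black circles) and of all genes tested (grey squares) on the right. The split is 10 higher and 4 lower with quantile normalization, 9 and 4 with a common trimmed mean, 5 and 6 with centring and 0 and 11 without scaling. Of all genes, 8.79% were higher and 9.12% lower with quantile normalization, and 8.91% and 8.56% with the trimmed mean. These shares were 5.38% and 10.9% with centring, and 2.29% and 36.1% without scaling. The median of the 37 genes lies above that of all genes under each scaling.

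The split of ileal calls followed the scaling. Ero1b, P4hb and Trib3 were lower in ileum under all 12 other settings. Sdf2l1, Pdia6, Pdia5, Ern2 and Atf6 kept a positive difference under all of them and were called in 11. Canx, Atf4, Eif2ak3 and Sec61b had a negative difference without scaling, and Dnajb11 one of 0.05. Calu kept its negative difference and its call under each of the 4 scalings. The 9 genes with the ER stress response element included 2 called higher in ileum (Canx and Pdia6), 1 lower (Ero1b) and 6 not called, with a median difference of 0.21. The 22 genes searched without a match to this element gave 6 higher, 3 lower and 13 not called, with a median of 0.16. These 22 include Herpud1 and Dnajb11, which hold element II, and Dnajb11 was among the 6 called higher. The 6 members with no promoter entry, which were not searched, gave 2 higher and 4 not called. In the mutant none of the 9 was called, and their median difference was 0.08, beside 0.07 for the 22.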

How the data were processed

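Total RNA was prepared on RNeasy columns and labelled with biotin by the Affymetrix one-cycle procedure, per the labels' protocols. The authors deposited 1 linear intensity per probe set and array, made with GCOS per the submitters' processing notes; its settings and any batches were not stated in the labels. Groups come from the sample titles.

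The 37 genes and all gene lists were chosen with earlier results of these data known. The 64 array controls among the 45101 probe sets were removed. Deposited intensities were turned into log2(intensity + 16) and quantile-normalized, so a shift of all transcripts could not be seen. This log2 scale understates the change of dim probe sets. A probe set was tested where at least 3 of 9 arrays exceeded the 40th percentile. Gene names come from the array's annotation table; 34945 probe sets have 1 gene, 932 several and 9160 none, and Entrez identifiers matched the GRCm38.p6 gene table for 34741. The tested probe sets cover 13830 genes.

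Differences were tested in limma 3.58.1 (R 4.3.3) in 1 fit over all 9 arrays, with eBayes and an intensity trend, two-sided, adjusted by Benjamini-Hochberg over 29307 probe sets. Adjusted p-values come from this limma model or, where an alternative is named beside them, from its refit under that alternative. The model was tested on simulated data. With 3 arrays a side, an exact permutation test reaches p = 0.1 at best, so none was run. The text names every member; of the other lists it names called genes with the largest difference, at most 4 per list and comparison. Alternatives were the scaling, the pseudocount, the filter, array weights, the variance trend, the arrays in the fit, the probe set of a gene, the replicate number as a block, and leaving out each array. Same-numbered arrays of different groups had correlations of -0.07 to 0.17 in their deviations from the group means, so the numbers were not taken to pair the mice. No 2 arrays held identical values. Promoter sequences are RefSeq's, from GRCm38.p6.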

Additional observations from a re-analysis of the deposited data

How the results depend on the processing

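Of the comparisons of single members under the 12 other settings, 1248 stayed on the same side of the threshold, 43 lost a call, 28 gained a call and 13 changed sign with a call in 1 of the fits. Of the 1248, 97 changed sign with no call in either fit, 34 of them without scaling and 29 with centring. With an array left out, 928 stayed on the same side, 58 of these with a change of sign and no call, 61 lost a call and 10 gained a call. Mutant jejunum 3 gave 14 of those 58. The 13 sign changes that involve a call came without scaling between arrays: ileum minus control jejunum was then -0.18 for Atf4, -0.050 for Canx, -0.090 for Eif2ak3, -0.10 for Sec61b, -0.56 for Selenos and -0.50 for Ssr1, and mutant minus ileum was 0.10 for Atf4, 0.61 for Dnajb9, 0.63 for Edem1, 0.48 for Hsp90b1, 0.52 for Sec61a1, 0.57 for Ssr1 and 0.54 for Xbp1. The ileum arrays were dimmer before scaling, which by construction lowers ileal values when no scaling is applied.

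The count of members called between mutant and control jejunum, 3, became 1 without scaling, with centring, without the filter and with the replicate number as a block, and 0 without the intensity trend; with each array left out it ran from 0 to 2, and the median ran from -0.07 to 0.15. For ileum against control jejunum the count of 14 ran from 8 to 18 with each array left out. It was 11 with the block, 10 without the intensity trend, and 17 with array weights and in the fit of the 2 groups alone. The median of 0.18 ran from 0.15 to 0.24 with each array left out and was -0.35 without scaling and 0.012 with centring. For mutant against ileum the count of 2 became 13 without scaling, 7 with array weights and 1 with centring, without the filter, without the intensity trend, in the fit of the 2 groups alone and with the block. Of all genes, 33.2% were higher and 0.654% lower without scaling, and 3.83% and 3.67% with array weights. With each array left out the count of members ran from 0 to 7. The median of -0.14 ran from -0.24 to -0.02 and was 0.46 without scaling and 0.15 with centring. Apart from the scaling, the cause of these changes was not tested. Of the 9 arrays, 1 correlated best with its own replicate number in both other groups, and the block counts above are given only because the titles share numbers. Differences of similar size fell on both sides of the threshold where their SE differed. Canx and Hspa5 in ileum were both at 0.48, with SE 0.10 and 0.20 and adjusted p = 0.00839 and 0.128. Hspa5 was called at a similar size without mutant jejunum 3 (0.47, adjusted p = 0.0103) and in the fit of the 2 groups alone (0.48, adjusted p = 0.0178).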
